A study of Mus musculus with 6 samples.

Results

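Expression of 35 genes of glucose uptake, glycolysis, lactate handling, the pentose phosphate pathway and HIF-1 control was examined in RNA-Seq of mouse bone marrow-derived macrophages (BMDM). The genes were taken by symbol from a count table of 55453 genes. The rule itself uses no measured value, but the set was drawn up with earlier results of these data known. All 35 passed the filter on low counts, among 13680 genes tested. The comparison asks how these genes differ between macrophages that lack PP2Ac, the catalytic subunit of protein phosphatase 2A encoded by Ppp2ca, and WT macrophages.

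The table holds 6 libraries of C57BL/6 BMDM, 3 labelled PP2A-KO and 3 labelled WT, with replicate numbers 1, 2 and 3 in each genotype. Per the study's methods, PP2A-KO cells came from LysM-cre PP2Ac fl/fl mice, in which cre under the Lysozyme 2 promoter removes exon 1 of Ppp2ca in myeloid cells. WT mice were C57BL/6 animals from a commercial supplier, so cre, colony of origin and loss of Ppp2ca cannot be told apart. Mice of both sexes aged 6 to 10 weeks were used in the study, and marrow cells were grown for 7 days with M-CSF or L929-conditioned medium. The labels give no treatment, while the study describes its BMDM RNA-Seq as done after 4 hours with 10 μg/mL cGAMP, an agonist of the DNA-sensing adaptor STING. All 6 libraries would share that treatment, so no effect of cGAMP on these genes can be read from them. Nothing states that the libraries came from separate mice, and the p-values measure the spread between these libraries.

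Glycolysis splits glucose into pyruvate. It begins with entry through GLUT carriers and phosphorylation by hexokinases, is paced by phosphofructokinase and its activator fructose-2,6-bisphosphate, and ends with pyruvate kinase. Pyruvate is either reduced to lactate or enters mitochondria through the pyruvate dehydrogenase complex, and a branch from glucose-6-phosphate, the pentose phosphate pathway, yields NADPH and ribose. HIF-1 is a transcription factor whose alpha subunit is marked for destruction by the prolyl hydroxylases EGLN1 and EGLN3 when oxygen is present. Many glycolytic genes are known HIF-1 targets, and inflammatory stimulation of macrophages is known to raise glycolysis and HIF-1α.

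HIF-1 binds a core written as ACGTG or GCGTG. Sequence upstream of a RefSeq transcript start is shown for Slc2a6 and Egln3, the 2 genes of the set whose log2 fold change exceeded 1 in size. It is also shown for Hif1a itself, for Bnip3 and for Ldha, a classic HIF-1 target. The sequences are from RefSeq promoter windows on GRCm38.p6, read 5′ to 3′ on the gene's strand and restricted to bases outside annotated exons. Capitals mark each match to the core on either strand, so that CACGT and CACGC are matches on the opposite strand. Where the palindrome CACGTG occurs, both strands match. Slc2a6 is read from chr2:27027999-27028248 (minus strand), Egln3 from chr12:54203875-54204124 (minus), Hif1a from chr12:73907617-73907866 (plus), Bnip3 from chr7:138909520-138909756 (minus) and Ldha from chr7:46845554-46845803 (plus). The stretches of Hif1a and Ldha lie within the gene spans of the GENCODE M21 annotation, which start further upstream, at chr12:73901375 and chr7:46841475.
Slc2a6: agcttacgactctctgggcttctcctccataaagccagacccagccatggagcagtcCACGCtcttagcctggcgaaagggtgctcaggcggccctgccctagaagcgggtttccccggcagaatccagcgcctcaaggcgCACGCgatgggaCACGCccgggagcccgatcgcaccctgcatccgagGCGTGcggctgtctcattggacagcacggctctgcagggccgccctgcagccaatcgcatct
Egln3: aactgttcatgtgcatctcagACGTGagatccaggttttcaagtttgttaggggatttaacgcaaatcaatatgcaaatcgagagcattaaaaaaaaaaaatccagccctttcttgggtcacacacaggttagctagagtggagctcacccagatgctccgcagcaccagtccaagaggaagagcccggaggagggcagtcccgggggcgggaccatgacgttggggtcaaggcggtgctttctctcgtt
Hif1a: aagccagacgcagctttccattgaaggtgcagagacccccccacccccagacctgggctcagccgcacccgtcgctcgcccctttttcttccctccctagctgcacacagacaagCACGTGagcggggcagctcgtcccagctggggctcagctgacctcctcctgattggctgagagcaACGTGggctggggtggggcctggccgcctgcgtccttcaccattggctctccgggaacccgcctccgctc
Bnip3: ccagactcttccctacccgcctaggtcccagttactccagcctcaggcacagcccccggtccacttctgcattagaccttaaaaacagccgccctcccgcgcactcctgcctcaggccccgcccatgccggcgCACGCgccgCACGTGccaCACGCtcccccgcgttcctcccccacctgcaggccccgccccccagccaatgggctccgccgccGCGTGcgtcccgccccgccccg
Ldha: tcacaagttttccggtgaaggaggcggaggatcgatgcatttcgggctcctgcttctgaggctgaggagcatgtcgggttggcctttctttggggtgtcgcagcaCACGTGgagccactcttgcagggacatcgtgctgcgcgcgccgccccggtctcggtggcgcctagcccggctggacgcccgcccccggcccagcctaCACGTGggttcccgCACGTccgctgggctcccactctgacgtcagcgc
These stretches hold 4 matches for Slc2a6, 1 for Egln3, 3 for Hif1a, 5 for Bnip3 and 5 for Ldha. Over whole windows, from 250 bases before to 50 bases after the start, 30 of the 35 genes had at least 1 match, a share of 85.7%. The share was 62.8% of the 10066 tested genes with a window and 43.8% of all 27025 genes with one. Within the set, matches were found for 7 of 8 genes that were upregulated in PP2A-KO, 7 of 7 that were downregulated and 16 of 20 that did not pass the test. A match describes letters in this window and says nothing about binding.

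Library totals ran from 35257156 to 47390899 counts, and 3 counts, the floor used here, corresponded to between 0.0604 and 0.0908 CPM (counts scaled to a common library total). Ppp2ca had 47, 33 and 38 counts in the 3 PP2A-KO libraries and 10654, 8913 and 8279 counts in the 3 WT libraries, in the direction the labels give. Of 8 macrophage markers, 8 were tested and 2, Mertk and Fcgr1, were higher in PP2A-KO. The 8 markers summed to 7438 to 7636 CPM in PP2A-KO and 6365 to 6974 CPM in WT, although Lyz2 had 260 to 421 counts in all libraries. Csf1r, the largest part of that sum, did not pass without the block (adjusted p = 0.0976). Of 7 fibroblast markers tested, 6 were lower in PP2A-KO, with a summed level of 25.4 to 37.7 CPM against 81.2 to 127 CPM in WT. Of 10 proliferation genes, 8 were lower in PP2A-KO, with a summed level of 284 to 299.7 CPM against 360.2 to 430.3 CPM in WT. Most of that sum was Pcna, which did not pass without the block (adjusted p = 0.161). Markers of endothelial and epithelial cells summed to 200.7 to 249.6 CPM against 86.8 to 138 CPM, with Cdh5 and Kdr higher in PP2A-KO, while Krt8 and Krt18 had 3 counts or fewer. Neutrophil markers summed to at most 0.287 CPM and T and NK cell markers to at most 0.666 CPM, with Ly6g, Elane, Camp, Cd3d, Cd3g, Cd8a and Trac at 3 counts or fewer. B cell markers summed to 14.9 to 15.3 CPM in PP2A-KO and 20.2 to 29.1 CPM in WT, dendritic cell markers to 1.99 to 3.04 against 1.31 to 2.05 CPM, and erythroid markers to at most 0.238 CPM. The part of these cells in the results for the 35 genes was not tested.

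Within the set, the genes of the first steps of glucose use, Hif1a and the fructose-2,6-bisphosphate enzyme Pfkfb3 were upregulated in PP2A-KO BMDM. The HIF prolyl hydroxylases Egln1 and Egln3 were downregulated. Egln2, a further HIF prolyl hydroxylase outside the set, did not pass with TMM scaling, with or without the block. Its groups overlapped (log2 fold change -0.08, standard error 0.067, adjusted p = 0.381). Most genes between these steps, including Gapdh, Pgk1, Pkm, Gpi1 and Tkt, had log2 fold changes near 0. By edgeR's quasi-likelihood test at an adjusted p (FDR) under 0.05, 8 of the 35 genes (22.9%) were higher in PP2A-KO, where the background over all 13680 genes was 18.1%. A further 7 genes (20%) were lower, with a background of 19.0%, and 20 genes did not pass. The shares of the set in both directions thus lie close to those of all genes. With the limits of the study (log2 fold change over 1 in size and FDR under 0.01), Slc2a6 alone was higher (background 3.36%) and Egln3 alone was lower (background 2.99%). In bulk RNA, more of a cell type and more RNA per cell cannot be told apart.

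The median log2 fold change of the 35 genes was 0.00, and that of all genes tested was -0.02. For 22 of the 35 genes the log2 fold change was under 0.25 in size, for 7 it exceeded 0.5, and for 2 it exceeded 1. The 3 PP2A-KO and 3 WT libraries did not overlap for 24 of the 35 genes, 12 in each direction, and the groups did not overlap for 50.9% of all genes tested. The labels state no pairing of libraries between genotypes. When the replicate number nevertheless entered the model as a block, 13 of the 35 genes were higher (background 24.4%). A further 13 were lower (background 26.4%) and 9 did not pass. Scaling by library totals alone, in place of TMM, moved the median of all genes by -0.22 and gave 6 higher and 19 lower genes of the set. Of the genes of the set that passed, 24% were then higher, compared with 53.3% with TMM, and for all genes tested the share went from 48.7% to 19.7%. With upper-quartile scaling 7 were higher and 10 lower, a share of 41.2% (all genes, 38.4%).

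**Figure D1:**
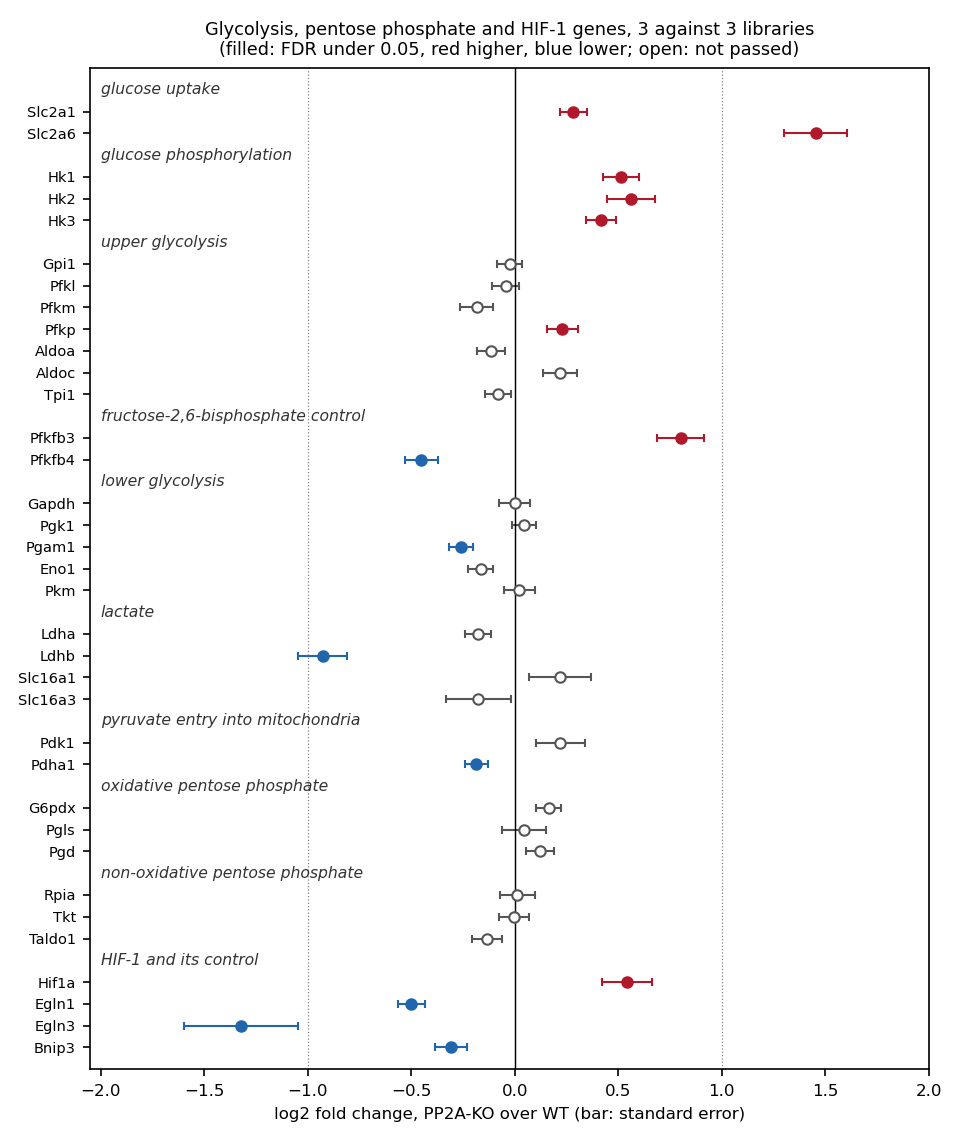
Log2 fold change of PP2A-KO over WT for each of the 35 genes, ordered by role, with the standard error as bars (3 against 3 libraries). Filled points passed edgeR's test at FDR under 0.05 (red, 8 higher; blue, 7 lower) and open points did not; dotted lines mark a log2 fold change of 1 in either direction, which Slc2a6 and Egln3 exceed.

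Both glucose carriers of the set were upregulated, where 18.1% of all genes tested were higher. Slc2a3, a glucose carrier outside the set, was lower, without overlap (log2 fold change -0.44, standard error 0.096, adjusted p = 0.00616). The related genes Slc2a8, Slc2a9 and Slc2a13, also outside the set, did not pass with TMM scaling and no block. Slc2a6, at chr2:27021363-27027998 (minus strand) of GRCm38 in GENCODE M21, encodes GLUT6, a carrier found mainly on intracellular membranes. It had 192, 169 and 141 CPM in the 3 PP2A-KO libraries and 72.5, 62.3 and 48.2 CPM in the 3 WT libraries. Every PP2A-KO library was well above every WT library (log2 fold change 1.45, standard error 0.15, adjusted p = 0.000176). Slc2a1, which encodes GLUT1, the main carrier for basal glucose entry, had 53.2, 49.6 and 47.5 CPM in PP2A-KO and 40.3, 43.2 and 40.1 CPM in WT. The groups did not overlap, but the difference was small (log2 fold change 0.28, standard error 0.065, adjusted p = 0.00792) and it did not pass with library totals alone (log2 fold change 0.066, adjusted p = 0.42 from edgeR). Set per length of exon, Slc2a6 had 19 ± 3.79 CPM per kb in WT and 52.1 ± 7.92 CPM per kb in PP2A-KO (SD, n = 3), and Slc2a1 had 11.7 ± 0.494 and 14.3 ± 0.812 CPM per kb.

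All 3 hexokinases, which trap glucose as glucose-6-phosphate, were upregulated, where 18.1% of all genes tested were higher. Hk2, the inducible form, lies at chr6:82725025-82774454 (minus strand). It had 179, 137 and 136 CPM in PP2A-KO and 113, 92.5 and 102 CPM in WT (log2 fold change 0.56, standard error 0.12, adjusted p = 0.00483). Hk1, the housekeeping form, had 169.6, 152 and 143 CPM in PP2A-KO and 119, 103 and 103 CPM in WT (log2 fold change 0.51, standard error 0.086, adjusted p = 0.0016). Hk3, a form abundant in myeloid cells, had 515, 473 and 484 CPM in PP2A-KO and 386, 342 and 373 CPM in WT (log2 fold change 0.42, standard error 0.072, adjusted p = 0.0019). For each hexokinase the lowest PP2A-KO library exceeded the highest WT library, and the call was made under all alternatives tried. Per length, Hk3 was the most abundant of the 3 in WT, at 99.8 ± 6.1 CPM per kb (SD, n = 3), compared with 17.1 ± 1.68 for Hk2 and 12.7 ± 1.07 for Hk1.

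The bifunctional enzymes that make and remove fructose-2,6-bisphosphate went in opposite directions. Pfkfb3, at chr2:11471433-11554077 (minus strand), encodes a form that strongly favours synthesis of this activator. It had 267, 232 and 217 CPM in PP2A-KO and 159, 131 and 120.4 CPM in WT (log2 fold change 0.80, standard error 0.11, adjusted p = 0.000705). Pfkfb4, a second enzyme of the family, had 37.5, 43.8 and 45.4 CPM in PP2A-KO and 55.1, 60.9 and 57.2 CPM in WT (log2 fold change -0.45, standard error 0.081, adjusted p = 0.00223). Neither gene's groups overlapped, the lowest PP2A-KO library being above all WT libraries for Pfkfb3 and the highest being below them for Pfkfb4. Per length, Pfkfb3 rose from 18.1 ± 2.66 to 31.5 ± 3.38 CPM per kb, and Pfkfb4 fell from 11.8 ± 0.601 to 8.67 ± 0.859 CPM per kb (SD, n = 3).

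**Figure D2:**
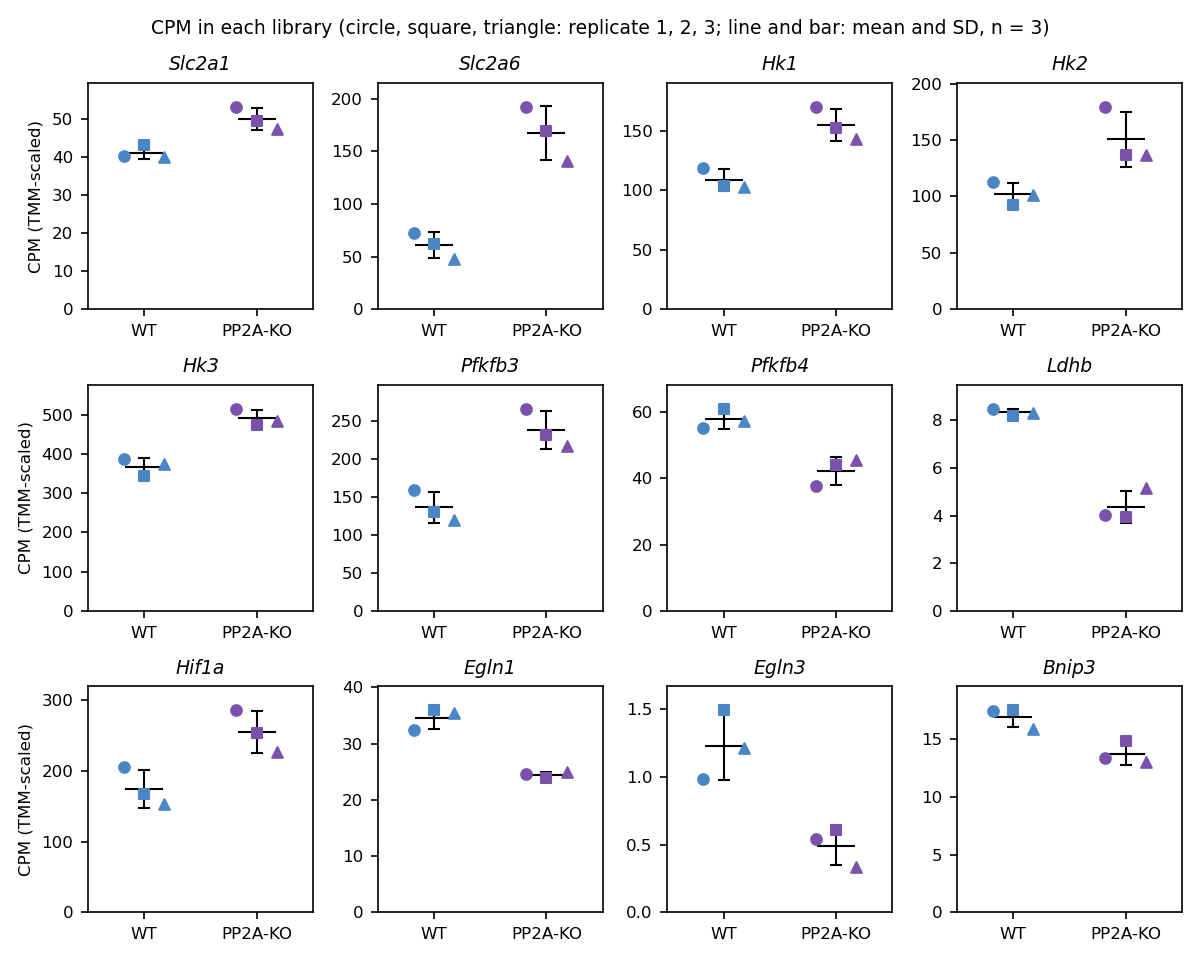
TMM-scaled CPM of 12 genes in each library, with blue points for WT and purple for PP2A-KO, a marker shape for each replicate number, and the mean and SD of 3 libraries as line and bars. The 2 genotypes do not overlap in any of the 12 panels; Slc2a1, Slc2a6, the hexokinases, Pfkfb3 and Hif1a lie higher in PP2A-KO and the other 5 lie lower.

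Of the 7 genes between hexokinase and the triose phosphates, Pfkp alone passed the test with TMM scaling and no block. Over all genes tested, 18.1% were higher and 19.0% lower. Pfkp, the platelet-type phosphofructokinase, had 105, 94.2 and 92.9 CPM in PP2A-KO and 89.97, 80.5 and 78.7 CPM in WT. The groups did not overlap, but the call was marginal (log2 fold change 0.23, standard error 0.077, adjusted p = 0.0405). It was lost without PP2A-KO replicate 1 (adjusted p = 0.134), without PP2A-KO replicate 2 (0.0708), without WT replicate 2 (0.13) or without WT replicate 3 (0.116), all from edgeR. It was also lost with upper-quartile scaling (0.0825) and library totals alone (0.855).

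The liver and muscle phosphofructokinases did not pass with TMM scaling and no block. Pfkl had 45.6 to 51.1 CPM in PP2A-KO and 47.6 to 51.4 CPM in WT, with overlapping groups (log2 fold change -0.04, standard error 0.064, adjusted p = 0.636). Pfkm had 11.1 to 13.1 CPM in PP2A-KO and 13.6 to 14 CPM in WT, without overlap (log2 fold change -0.18, standard error 0.0800, adjusted p = 0.104, and 0.0368 with the replicate block). Of the aldolases, which cleave fructose-1,6-bisphosphate, Aldoa had 1056, 1096 and 1057 CPM in PP2A-KO and 1107, 1191 and 1177 CPM in WT (log2 fold change -0.11, standard error 0.067, adjusted p = 0.21, and 0.0373 with the replicate block). The 3 WT libraries were all above the 3 PP2A-KO libraries, yet by little. Aldoc, at a far lower level, had 14.4 to 15.3 CPM in PP2A-KO and 11.7 to 13.8 CPM in WT (log2 fold change 0.22, standard error 0.082, adjusted p = 0.0655, and 0.024 with the replicate block). The phosphoglucose isomerase Gpi1 (-0.02) and the triosephosphate isomerase Tpi1 (-0.08) had small log2 fold changes, with standard errors of 0.0595 and 0.064, and neither passed with TMM scaling, with or without the block. Both were lower with library totals alone.

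In lower glycolysis, Pgam1 was the single gene of 5 that passed with TMM scaling and no block, where 18.1% of all genes tested were higher and 19.0% lower. Pgam1 encodes phosphoglycerate mutase, and had 99.3, 102 and 105 CPM in PP2A-KO and 118, 124 and 125 CPM in WT, without overlap (log2 fold change -0.26, standard error 0.059, adjusted p = 0.00767). Of its transcript windows of 50 bases, 36.2% also occur in other annotated genes, the pseudogene Pgam1-ps2 among them, so reads could have been divided among copies. The enolase gene Eno1 had 353, 361 and 346 CPM in PP2A-KO and 389.8, 407 and 390.2 CPM in WT. All WT libraries were above all PP2A-KO libraries, and the test fell just short (log2 fold change -0.16, standard error 0.061, adjusted p = 0.0632, and 0.00572 with the replicate block).

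Gapdh, which oxidises glyceraldehyde-3-phosphate and often serves as a reference gene, had 530.2, 568 and 581 CPM in PP2A-KO and 516, 583 and 579 CPM in WT. Its groups overlapped throughout (log2 fold change 0.00, standard error 0.075, adjusted p = 0.999), although the sign turns negative with upper-quartile scaling and with library totals alone. Pkm, the pyruvate kinase gene, had 1428, 1394 and 1291 CPM in PP2A-KO and 1411, 1361 and 1278 CPM in WT, again with overlap (log2 fold change 0.02, standard error 0.074, adjusted p = 0.839). Pgk1, the phosphoglycerate kinase, had 235 to 239 CPM in PP2A-KO and 227 to 231 CPM in WT. The PP2A-KO libraries were all higher, though by little (log2 fold change 0.05, standard error 0.058, adjusted p = 0.569). For Pkm and Pgk1 too the sign turned under upper-quartile scaling and library totals alone. Reads of these genes could also be shared with copies, since 53.9% of Pgk1, 26% of Eno1, 25.8% of Pkm and 24.7% of Gapdh windows occur in other annotated genes.

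For lactate, the 2 dehydrogenase genes were both lower in value in PP2A-KO, and Ldhb passed. Ldhb, at chr6:142490249-142507957 (minus strand), encodes the subunit that favours the conversion of lactate to pyruvate. It had 4.03, 3.94 and 5.15 CPM in PP2A-KO and 8.49, 8.2 and 8.32 CPM in WT. The 3 WT libraries were nearly alike and every PP2A-KO library was below them (log2 fold change -0.93, standard error 0.12, adjusted p = 0.000415). These values rest on 130 to 215 counts in PP2A-KO and 349 to 422 counts in WT. Ldha, whose subunit favours lactate production, had 569, 593 and 573 CPM in PP2A-KO and 651, 674 and 635 CPM in WT. The groups did not overlap, and the test was just short of the threshold without the block (log2 fold change -0.18, standard error 0.063, adjusted p = 0.0555, and 0.00372 with the replicate block). A share of 21% of Ldhb windows and 9.04% of Ldha windows occurs in other annotated genes.

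Neither lactate carrier passed with TMM scaling and no block, and their libraries varied more than those of most genes of the set. The labels state no pairing, so same-number comparisons and the block rest on a pairing inferred from these data. Slc16a1, which encodes the carrier MCT1, had 44.7, 35.8 and 31 CPM in PP2A-KO and 36.7, 32.7 and 26.2 CPM in WT. The groups overlapped, while each PP2A-KO library was above the WT library of the same number (log2 fold change 0.22, standard error 0.15, adjusted p = 0.279, and 0.00309 with the replicate block). Slc16a3, which encodes the lactate exporter MCT4, had 128, 137 and 100.4 CPM in PP2A-KO and 139, 165 and 108 CPM in WT. Here too the groups overlapped, while each PP2A-KO library was below the WT library of the same number (log2 fold change -0.18, standard error 0.16, adjusted p = 0.416, and 0.0108 with the replicate block). Slc16a3 also passed with library totals alone (log2 fold change -0.39, adjusted p = 0.0449 from edgeR).

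At the entry of pyruvate into mitochondria, Pdha1, the E1 alpha subunit of pyruvate dehydrogenase, had 55.3, 56.2 and 58.3 CPM in PP2A-KO and 63.1, 65.2 and 64.8 CPM in WT. The groups did not overlap (log2 fold change -0.18, standard error 0.054, adjusted p = 0.025). The call was lost in DESeq2 (adjusted p = 0.0646), in edgeR with no filter on low counts (0.0632), and without PP2A-KO replicate 1 (0.067), PP2A-KO replicate 2 (0.0897), WT replicate 2 (0.0912) or WT replicate 3 (0.0728). Pdk1, the kinase that inactivates this subunit and a known HIF-1 target, had 31.8, 25.5 and 24.3 CPM in PP2A-KO and 26.3, 22.9 and 20.8 CPM in WT. Its groups overlapped, with each PP2A-KO library above the WT library of the same number (log2 fold change 0.22, standard error 0.12, adjusted p = 0.174, and 0.00388 with the replicate block). That pairing by number was inferred from these data and is not stated by the labels.

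In the oxidative pentose phosphate pathway, which yields NADPH, 0 of the 3 genes passed edgeR's test, 1 had an unadjusted p under 0.05, and DESeq2 and limma-voom each called 1, G6pdx. By edgeR's test, 18.1% of all genes tested were higher and 19.0% lower. G6pdx, the first and rate-limiting enzyme, had 210.0, 210.2 and 217 CPM in PP2A-KO and 193, 185 and 191 CPM in WT. All PP2A-KO libraries were above all WT libraries (log2 fold change 0.16, standard error 0.059, adjusted p = 0.0551, and 0.00623 with the replicate block). Pgd, which makes ribulose-5-phosphate, had 454, 459.7 and 471 CPM in PP2A-KO and 409, 411 and 452 CPM in WT. The groups did not overlap, though WT replicate 3 came close to PP2A-KO (log2 fold change 0.12, standard error 0.068, adjusted p = 0.192, and 0.032 with the replicate block). With library totals alone the log2 fold changes turned negative, to -0.051 for G6pdx and -0.10 for Pgd. Pgls, the lactonase between them, had 42.3 to 50.9 CPM in PP2A-KO and 38.4 to 50.9 CPM in WT, with overlap (log2 fold change 0.04, standard error 0.11, adjusted p = 0.778).

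In the non-oxidative branch, which links pentoses back to glycolysis, 0 of the 3 genes passed in edgeR with TMM scaling and no block, DESeq2 or limma-voom, and 0 had an unadjusted edgeR p under 0.05. The shares of all genes tested in edgeR were 18.1% higher and 19.0% lower. Taldo1, transaldolase, had 325, 348 and 358 CPM in PP2A-KO and 361, 368 and 402 CPM in WT, without overlap (log2 fold change -0.13, standard error 0.072, adjusted p = 0.178, and 0.0206 with the replicate block). Tkt, transketolase, had 202 to 224 CPM in PP2A-KO and 202 to 228 CPM in WT (log2 fold change -0.0023, standard error 0.072, adjusted p = 0.984). Rpia, ribose-5-phosphate isomerase, had 7.99 to 9.17 CPM in PP2A-KO and 8.5 to 8.63 CPM in WT (log2 fold change 0.01, standard error 0.086, adjusted p = 0.919). Both genes' groups overlapped, and neither passed with the block. Tkt and Taldo1 were lower with library totals alone.

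The 4 genes of the HIF-1 group all passed, 1 upwards and 3 downwards, where 18.1% of all genes tested were higher and 19.0% lower. The group holds Hif1a, the prolyl hydroxylases Egln1 and Egln3, and Bnip3, a target and not a regulator. Hif1a, the oxygen-regulated alpha subunit, lies at chr12:73901375-73947530 (plus strand). It had 285, 253 and 226 CPM in PP2A-KO and 205, 167 and 153 CPM in WT. Each PP2A-KO library was above all WT libraries (log2 fold change 0.54, standard error 0.12, adjusted p = 0.0066). Egln1, which encodes PHD2, the main oxygen sensor acting on HIF-1α, had 24.6, 24 and 24.9 CPM in PP2A-KO and 32.4, 35.9 and 35.5 CPM in WT. The PP2A-KO libraries were nearly alike and all lay below WT (log2 fold change -0.50, standard error 0.064, adjusted p = 0.000448).

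Egln3, at chr12:54178981-54203860 (minus strand), encodes PHD3 and is itself a known HIF target. It was of very low level, with 23, 20 and 14 counts in PP2A-KO and 49, 65 and 51 counts in WT. These counts correspond to 0.542, 0.606 and 0.335 CPM and 0.986, 1.49 and 1.22 CPM, so the groups did not overlap (log2 fold change -1.32, standard error 0.28, adjusted p = 0.005005). The gene stayed under 0.05 without any 1 library, but FDR exceeded 0.01 without PP2A-KO replicate 1 (adjusted p = 0.0166), PP2A-KO replicate 2 (0.0116), PP2A-KO replicate 3 (0.0195) or WT replicate 2 (0.0242). Bnip3, a mitophagy receptor and HIF-1 target, had 13.4, 14.8 and 13 CPM in PP2A-KO and 17.5, 17.5 and 15.9 CPM in WT, without overlap (log2 fold change -0.31, standard error 0.079, adjusted p = 0.0139). Its call was lost narrowly without PP2A-KO replicate 3 (adjusted p = 0.0501) and without WT replicate 2 (0.05996). Of the upstream sequences shown above, those of Hif1a and Bnip3 thus belong to genes that differ in opposite directions, and both contain CACGTG.

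**Figure D3:**
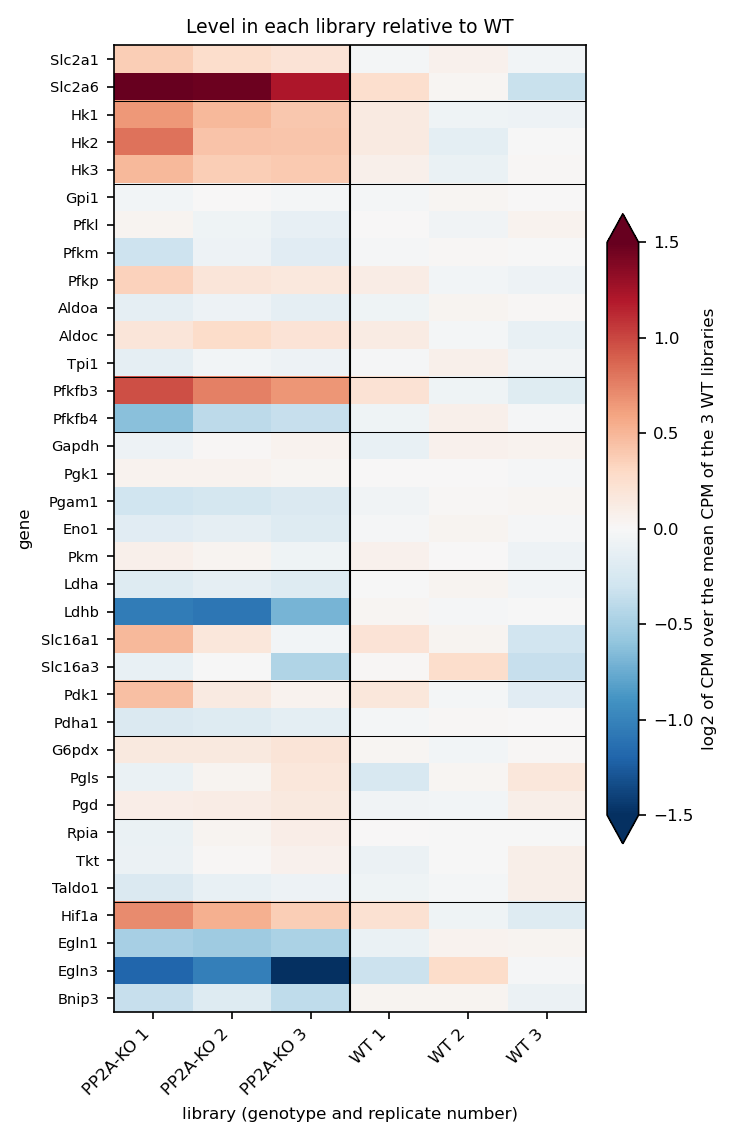
Log2 of each library's CPM over the mean CPM of the 3 WT libraries, for the 35 genes (rows, by role) and 6 libraries (columns). Slc2a6, the hexokinases, Pfkfb3 and Hif1a are red and Ldhb, Egln1 and Egln3 blue in all 3 PP2A-KO libraries, whereas Gpi1, Gapdh, Pgk1 and Pkm are pale in all 6.

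Within families, the balance between forms was compared as each gene's share of its family's CPM per kb, which does not depend on how libraries are scaled. Slc2a6 made up 79.7%, 78.8% and 76.4% of the signal of the 2 glucose carriers of the set in PP2A-KO and 66.3%, 61.2% and 56.8% in WT. The means were 78.3% ± 1.73 (SD, n = 3) in PP2A-KO and 61.4% ± 4.74 (SD, n = 3) in WT, and the groups did not overlap. Pfkp made up 40.1% ± 1.42 (SD, n = 3) in PP2A-KO and 34.9% ± 1.83 (SD, n = 3) in WT of the phosphofructokinases. Pfkm made up 20.2% ± 2.16 (SD, n = 3) in PP2A-KO and 23.3% ± 0.893 (SD, n = 3) in WT, and Pfkl 39.7% ± 0.779 (SD, n = 3) in PP2A-KO and 41.8% ± 1.5 (SD, n = 3) in WT. For each of these 3 shares the groups did not overlap either.

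Ldha made up 98.4% ± 0.254 (SD, n = 3) in PP2A-KO and 97.4% ± 0.105 (SD, n = 3) in WT of the lactate dehydrogenases, and Aldoa 98.8% ± 0.015 (SD, n = 3) in PP2A-KO and 99% ± 0.119 (SD, n = 3) in WT of the aldolases, without overlap between the groups. Ldhb and Aldoc hold the small remainder of each family. The hexokinase shares did overlap, Hk3 holding 75.5% ± 1.6 (SD, n = 3) in PP2A-KO and 77% ± 0.769 (SD, n = 3) in WT, as did the share of Slc16a1 among the lactate carriers (26.8% ± 2.89 (SD, n = 3) in PP2A-KO and 22% ± 2.45 (SD, n = 3) in WT). Of 10 shares compared, 6 did not overlap, each with p = 0.1 in a 2-sided exact permutation test and 0.167 after Benjamini-Hochberg adjustment over the 10. The 3 shares within the hexokinases and within the phosphofructokinases sum to 100%, so these 10 are not independent. With 3 against 3 libraries 0.1 is the smallest p this test can give. Pfkfb3 made up 82.1%, 77.3% and 75.5% of Pfkfb3 and Pfkfb4 together in PP2A-KO and 65.1%, 58% and 57.6% in WT. That pair was added after its values were seen and was not tested.

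**Figure D4:**
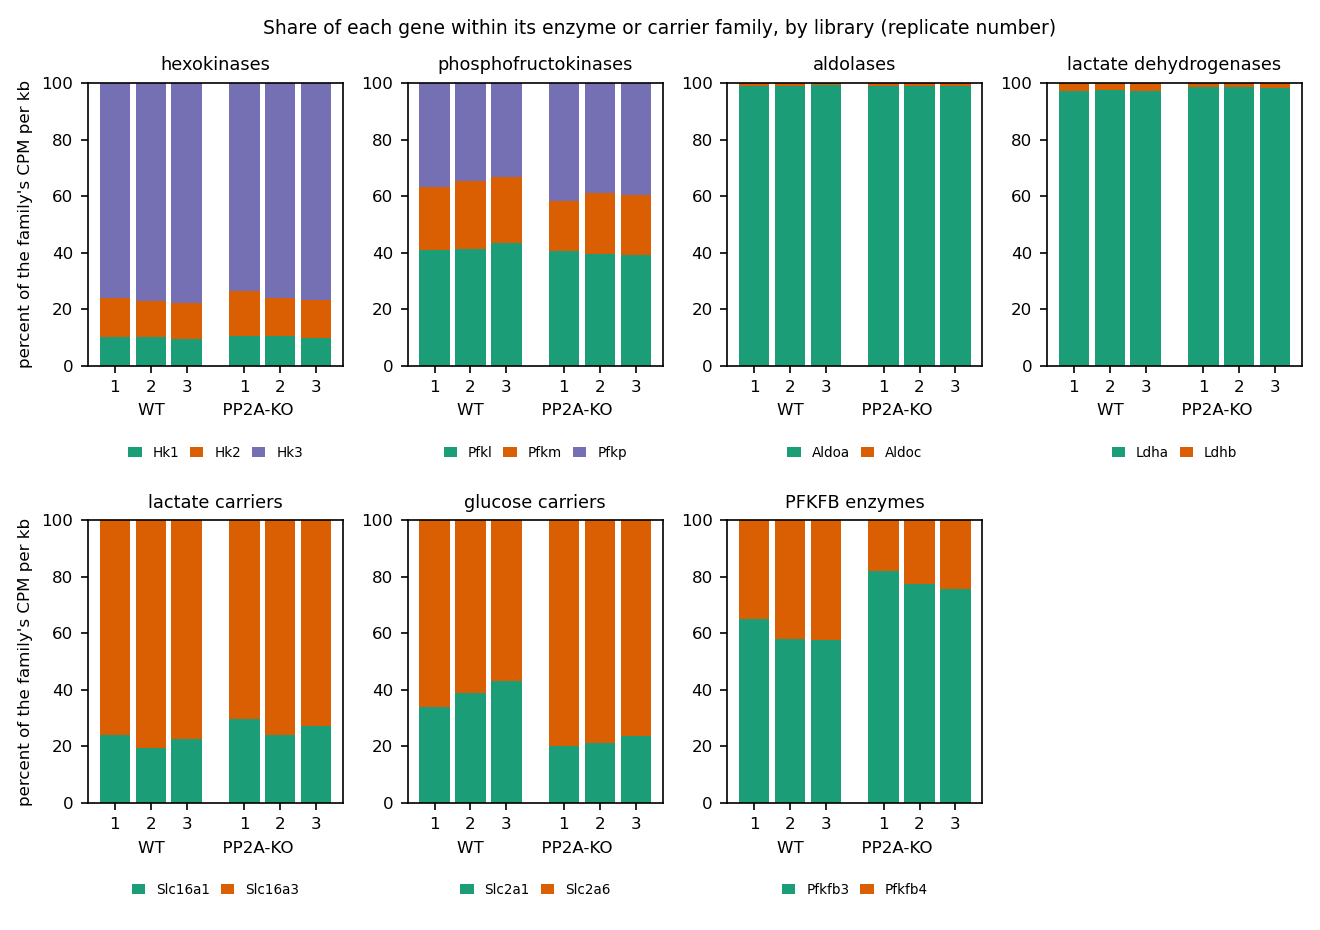
Share of each gene in the summed CPM per kb of its family (percent, stacked to 100), with 1 bar for each of 3 WT and 3 PP2A-KO libraries. Slc2a6 and Pfkfb3 take a larger share in each PP2A-KO bar than in any WT bar, while the hexokinase bars look alike.

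Levels per length in WT differed widely between the genes. Aldoa was highest at 398 ± 15.4 CPM per kb (SD, n = 3), followed by Pkm at 269.9 ± 13.4, Ldha at 197 ± 5.996, Taldo1 at 174 ± 10.1 and Gapdh at 135 ± 9.07. Pgk1 (102 ± 1.004) and Hk3 (99.8 ± 6.1) came next and did not differ beyond their SD, nor did Tpi1 (67.6 ± 3.04) and Pgd (65.8 ± 3.8), or Pgam1 (61.6 ± 1.9) and G6pdx (61.6 ± 1.42). In PP2A-KO, Hk3 reached 133 ± 5.9 CPM per kb, close to Gapdh at 135 ± 6.36. The lowest levels were those of Pdk1 (2.999 ± 0.359), Rpia (1.6 ± 0.012) and Egln3 (0.463 ± 0.0955). These levels divide by the merged exon length of the annotation and do not account for which isoform was made. Nor do they account for reads that copies could share. Of the 50-base transcript windows, 53.9% of Pgk1, 24.7% of Gapdh and 0% of Hk3 occur in other annotated genes.

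Libraries with the same number tended to deviate together for these genes. The same replicate number was highest in both genotypes for 24 of the 35 genes (68.6%), against 52.4% of all genes tested, and the full order of the 3 numbers was the same for 19 of the 35 (54.3%), against 35.5%. Replicate 1 was highest in both genotypes for 10 genes, which were Slc2a6, Hk1, Hk2, Hk3, Pfkp, Pfkfb3, Pkm, Slc16a1, Pdk1 and Hif1a. Of these, 7 were among the 8 upregulated genes. Replicate 2 was highest in both for 9 genes, among them Aldoa, Eno1, Ldha, Slc16a3, Egln3 and Bnip3, and replicate 3 for Pgam1, Pgls, Pgd, Tkt and Taldo1. The block made 11 further genes pass (Pfkm, Aldoa, Aldoc, Eno1, Ldha, Slc16a1, Slc16a3, Pdk1, G6pdx, Pgd and Taldo1). Their log2 fold changes were all under 0.25 in size.

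Other genes of the same pathways were taken from lists of glycolysis, glycogen and hexose genes, pyruvate and lactate genes, pentose phosphate and ribose genes, HIF subunits and regulators, and HIF targets outside these pathways. Of 144 such genes in the table, 118 were tested, 18 were higher (15.3%) and 29 were lower (24.6%), against 18.1% and 19.0% of all genes tested. With the replicate block, 29 were higher and 43 lower of the 118, against 24.4% and 26.4% of all genes tested. Their median log2 fold change was -0.07. The other glycolysis list had 3 higher and 9 lower genes of 32, with a median of -0.14. Minpp1, a phosphatase of inositol phosphates and 2,3-bisphosphoglycerate, was higher (log2 fold change 0.82, standard error 0.12, adjusted p = 0.000879), and Eno2 (log2 fold change -0.85, standard error 0.17, adjusted p = 0.00411), the mitochondrial carboxykinase Pck2 (log2 fold change -0.81, standard error 0.15, adjusted p = 0.00246), the glucose-1,6-bisphosphate synthase Pgm2l1 (log2 fold change -0.68, standard error 0.076, adjusted p = 0.000232) and Pfkfb2 (log2 fold change -0.56, standard error 0.16, adjusted p = 0.0225) were lower.

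Among pyruvate and lactate genes, 1 was higher and 3 were lower of 18, with a median of -0.06, and with the block 3 were higher and 6 lower. Over all genes tested the corresponding shares were 18.1% and 19.0%, or 24.4% and 26.4% under the block. Pdk3, a pyruvate dehydrogenase kinase, had 46.1, 44.4 and 38.4 CPM in PP2A-KO and 28.2, 20.8 and 17.3 CPM in WT, without overlap (log2 fold change 0.96, standard error 0.16, adjusted p = 0.00138). A second kinase of that family, Pdk2, was lower (log2 fold change -0.53, standard error 0.11, adjusted p = 0.00452), as were the opposing phosphatase Pdp1 (log2 fold change -0.35, standard error 0.081, adjusted p = 0.0085) and the carrier Slc16a6 (log2 fold change -0.34, standard error 0.065, adjusted p = 0.00321). Of the pentose phosphate and ribose genes, 3 were higher and 1 was lower of 10, with a median of -0.04, and with the block 2 were lower. The epimerase Rpe (log2 fold change 0.58, standard error 0.10, adjusted p = 0.00162), the gluconokinase Idnk (log2 fold change 0.54, standard error 0.071, adjusted p = 0.000479) and Prpsap1 (log2 fold change 0.26, standard error 0.063, adjusted p = 0.0112) were higher, and H6pd, which acts on glucose-6-phosphate in the endoplasmic reticulum, was lower (log2 fold change -0.34, standard error 0.067, adjusted p = 0.004000).

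Among other HIF subunits and regulators, 5 were higher and 2 lower of 20, with a median of 0.15, and 11 were higher and 3 lower with the block. All genes tested gave 18.1% upwards and 19.0% downwards, or 24.4% and 26.4% under the block. Cited2, which competes with HIF-1α for its coactivators, was higher (log2 fold change 0.58, standard error 0.067, adjusted p = 0.000281), as were Cul2, a component of the VHL ubiquitin ligase (log2 fold change 0.42, standard error 0.072, adjusted p = 0.00181), Rack1 (log2 fold change 0.28, standard error 0.0702, adjusted p = 0.0125) and Os9 (log2 fold change 0.23, standard error 0.0600, adjusted p = 0.014). Epas1, which encodes HIF-2α, was lower, with 9.61, 9.54 and 11.2 CPM in PP2A-KO and 14.5, 13.3 and 14.7 CPM in WT (log2 fold change -0.49, standard error 0.089, adjusted p = 0.00251). Its direction was thus opposite to that of Hif1a, while Arnt, the shared beta subunit, had a log2 fold change of -0.02 (adjusted p = 0.847). Arnt is named here after its value was seen.

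HIF targets outside these pathways had 6 higher and 14 lower genes of 38 (15.8% and 36.8%), against 18.1% and 19.0% of all genes tested, with a median of -0.17. With the block 8 were higher and 19 lower, against 24.4% and 26.4% of all genes tested. Among the lower genes were Loxl2 (log2 fold change -2.01, standard error 0.25, adjusted p = 0.000362), Zfp395 (log2 fold change -1.20, standard error 0.088, adjusted p = 5.51e-05) and Plod2 (log2 fold change -1.16, standard error 0.19, adjusted p = 0.00137). Loxl2 and Plod2 modify collagen, and the fibroblast markers, 6 of 7 lower, moved in the same direction. P4ha1, which also acts on collagen, moved in the opposite direction (values below). The part of fibroblasts in these values was not tested. Loxl2 and Plod2 were of low level in WT, at 0.318 ± 0.0601 and 0.657 ± 0.0758 CPM per kb (SD, n = 3). Of the higher genes, Pdgfb encodes a growth factor subunit (log2 fold change 0.84, standard error 0.14, adjusted p = 0.00133). Vegfa and P4ha1, picked after their values were seen as familiar HIF-1 targets, were also higher. Vegfa, the angiogenic factor, had 442, 447 and 347 CPM in PP2A-KO and 292, 299.9 and 253 CPM in WT (log2 fold change 0.55, standard error 0.11, adjusted p = 0.003996), and P4ha1, a collagen prolyl hydroxylase subunit, had 287, 275 and 265 and 200.2, 161 and 158 CPM (log2 fold change 0.67, standard error 0.10, adjusted p = 0.00071). The targets of HIF-1 in these lists and in the set were therefore not of 1 direction, although more of the 38 were lower (14) than higher (6). As picked examples, Slc2a1, Hk2, Pfkfb3 and Vegfa were higher and Pfkfb4, Egln1, Egln3 and Bnip3 lower.

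**Figure D5:**
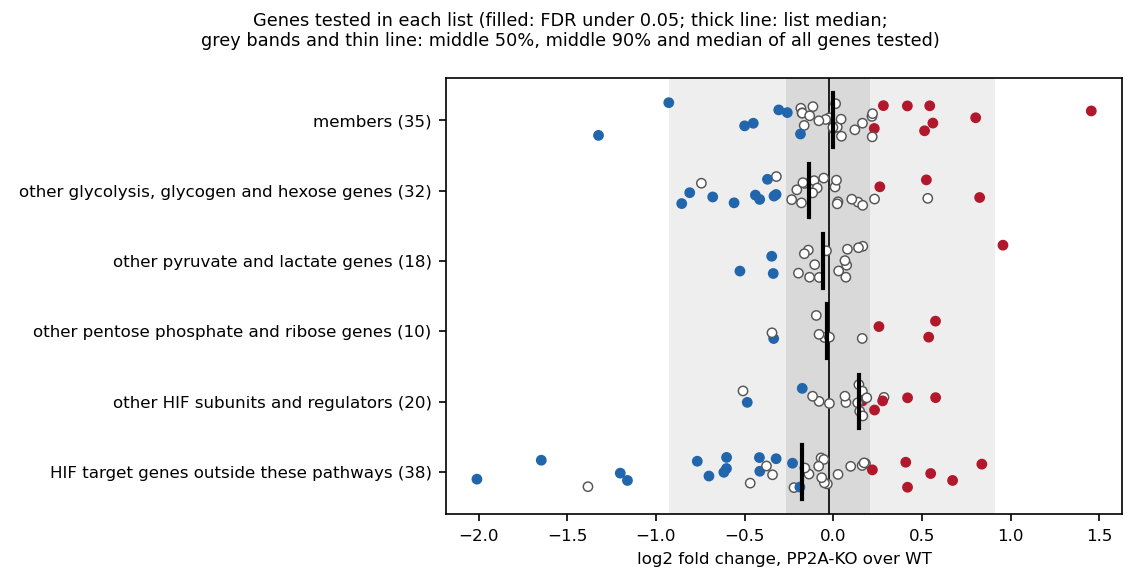
Log2 fold change of PP2A-KO over WT for the 35 genes of the set and for the tested genes of 5 related lists (1 point each, filled where FDR was under 0.05, red higher and blue lower), with a thick line at each list's median. Grey bands give the middle 50% and 90% of all 13680 genes tested, and most points of every list lie within the wider band.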

How the data were processed

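Poly(A) RNA of 6 BMDM cultures was sequenced by the authors as directional, paired 150-base reads. The authors deposited 1 table of raw counts per gene symbol, on the build mm10. The submitters' processing notes name fastp 0.20.0, kallisto 0.46.1, STAR 2.7.1a, HTSeq 0.11.2, edgeR 3.34.0 and limma 3.48.3, without their roles, and the strand setting of the counting is not given in the sources used here. Every column of the table belonged to 1 of the 6 libraries, and groups and replicate numbers were taken from the labels.

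Differential expression used edgeR 4.0.16 under R 4.3.3. After filterByExpr (minimum count 10, minimum total 15) and TMM scaling, genotype was tested by glmQLFit and glmQLFTest. P-values were adjusted by Benjamini-Hochberg over the 13680 genes kept, and adjusted p-values in the text come from this test unless another tool is named. Standard errors are the log2 fold change over the square root of F. CPM use TMM-scaled totals, and CPM per kb divide these by the merged exon length in GENCODE M21 (GRCm38), in which 98.3% of symbols were found. RefSeq promoter windows of GRCm38.p6 were found for all 35 genes.

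Counts of replicates differed by far more than sampling noise (chi-square per degree of freedom 9.54 to 46.0), so none were merged. The labels number the replicates within each genotype and state no pairing between genotypes. The deviations of same-numbered libraries from their group means correlated at 0.29, 0.15 and 0.34, and those of other pairs at -0.26 to -0.03. Because deviations within a group cancel out, the negative values of other pairs are not separate support. From these same data the numbers were taken to pair the libraries, and a fit with the number as a block was made. What same-numbered libraries share is not stated, so results with the block rest on this inferred pairing. Other alternatives were RLE and upper-quartile scaling, library totals alone, no filter, at least 10 counts in every library, DESeq2 1.42.0, limma-voom (limma 3.58.1) and each library left out in turn. Floors of 3 counts cover counting error only.

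The genes, the lists and the tests were chosen with earlier results of these data known. Named are all 35 genes, Ppp2ca and, from each other pathway list, up to 5 genes with the largest log2 fold change in size among those at FDR under 0.05, except that 1 gene of the HIF target list is not reported here. Arnt, Egln2, Vegfa, P4ha1, Slc2a3, Slc2a8, Slc2a9 and Slc2a13 fall outside this rule and were named after their values were seen. Lists were written by hand from textbook roles. Markers were read by list.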

Additional observations from a re-analysis of the deposited data

How the results depend on the processing

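Slc2a6, Hk1, Hk2, Hk3, Pfkfb3, Hif1a, Pfkfb4, Pgam1, Ldhb, Egln1 and Egln3 were called in the same direction under all 14 alternatives, and the other called genes (Slc2a1, Pfkp, Pdha1 and Bnip3) kept their direction. The replicate block raised the genes of the set that were higher from 8 to 13, those lower from 7 to 13 and the other pathway genes that were higher from 18 to 29. It ended no call within the set. Library totals alone gave 19 lower genes of the set (2 past the fold limit) and 65 lower genes of the other lists, and shifted all genes together. With that scaling, 6125 of the 13680 genes tested were lower. The median log2 fold change of the set was -0.065 with upper-quartile scaling and -0.22 with library totals alone, and -0.041 to 0.030 with 1 library left out. Without 1 library, 0 to 1 genes were lower past the fold limit.

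Within the set, the sign changed only in genes that did not pass. With upper-quartile scaling the log2 fold changes were -0.065 for Gapdh, -0.018 for Pgk1, -0.041 for Pkm, -0.022 for Pgls and -0.0503 for Rpia. With library totals alone they were -0.22 for Gapdh, -0.17 for Pgk1, -0.19 for Pkm, -0.051 for G6pdx, -0.17 for Pgls, -0.10 for Pgd and -0.20 for Rpia. Gapdh was at -0.00796 with no filter and -0.00365 with at least 10 counts in every library, Tkt at 0.019 with RLE and 0.021 in DESeq2, and Gpi1 at 0.000292 in DESeq2. With 1 library left out, log2 fold changes ran from -0.054 to 0.032 for Gapdh, -0.014 to 0.067 for Pkm, -0.061 to 0.14 for Pgls, -0.0300 to 0.062 for Rpia and -0.044 to 0.046 for Tkt. The cause of the differences between settings, the common shift under library totals among them, was not tested. At 14 to 65 counts per library, Egln3 is the gene of the set whose level is least precisely known.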
